A study of Danio rerio with 4 samples.

Results

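The myelin genes examined in the zebrafish brain were plp1a, plp1b, mbpa, mbpb, mpz, cldnk and mag, listed by name and not by their values. Their probe sets were taken from the gene symbols of the array's platform annotation. For plp1b, a probe set without a platform symbol was used, which the study's own gene table pairs with that gene. That table holds genes selected by their difference in the study's arrays, so a place in it is not independent evidence of a difference. Of the 7 genes, 4 had a probe set (plp1b, cldnk, mbpa and mbpb), with 1 probe set each, among 8793 gene symbols and 15502 probe sets on the array. The other 3, plp1a, mpz and mag, had none by this rule.

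Brain RNA came from adult zebrafish held at 10°C for 10 days (cold) and from adults kept at 28°C (normal). Affymetrix Zebrafish Genome Arrays of 1 colour were used, 2 for each condition, and gave 1 intensity for each probe set, a group of short probes to 1 gene's transcripts. The RNA came from pooled brains of fish kept in groups with equal numbers of males and females, so the arrays hold no value of a single animal. No source used here names the strain. The arrays are called cold 1 and cold 2, normal 1 and normal 2, after the numbers in their titles, and 2 arrays that share a number are called a set. The study describes more acclimation experiments than the 2 arrays of each condition used here. The labels do not say from which experiment each of the 4 arrays came or that a number marks a shared one. The spread between arrays of a label is thus that of RNA pools, from separate acclimations or not, and may be partly technical. For each p-value and SE, the fit drew a probe set's own spread toward that of probe sets of like signal.

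Myelin is the stack of glial membrane around axons that lets impulses jump from node to node. Oligodendrocytes make it in the brain and Schwann cells in peripheral nerves. Myelin basic protein, the product of mbpa and mbpb, lies on the cytoplasmic side and draws the inner faces close. In fish, unlike mammals, myelin protein zero (mpz) belongs to central as well as peripheral myelin. Claudin k (cldnk) is a tight junction protein of myelinating glia in teleosts, and myelin associated glycoprotein (mag) is an adhesion molecule of the membrane next to the axon. The letters a and b mark gene copies that fish kept from a genome duplication. Each copy was assigned its own probe set or none, and whether a probe set also binds the other copy's transcripts was not tested.

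Arrays of the same label were not alike. The median absolute log2 ratio over the 9301 tested probe sets was 0.25 for cold 1 over normal 2, 0.37 for cold 1 over cold 2 and 0.41 for normal 1 over normal 2. Within the sets it was 0.40 for cold 1 over normal 1 and 0.29 for cold 2 over normal 2, and for cold 2 over normal 1 it was 0.33. Cold 1 thus lay nearer to normal 2 than to the other cold array. The array medians, 100.4 on cold 1, 98.74 on cold 2, 95.9 on normal 1 and 101.6 on normal 2, were close to each other. The labels were kept as given, and the myelin values are shown on each array and within each set.

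For plp1b, cold 1 was close to normal 2, as over all tested probe sets. Its cold 2 was close to normal 1, whereas over all tested probe sets cold 2 lay nearer to normal 2. Its signal (plp1b, NCBI gene 368234) was 5992 on cold 1 and 2259 on cold 2, against 2279 on normal 1 and 5203 on normal 2. Cold 1 and normal 2 were high, cold 2 and normal 1 were low, and the 2 conditions overlapped. The level on cold 1 was 2.65 times that on cold 2, and the level on normal 2 was 2.28 times that on normal 1, so arrays of 1 label differed about as much as the arrays of a set. In set 1 the ratio of cold to normal was 2.63, and in set 2 it was 0.434. Across the sets, cold 1 over normal 2 gave 1.15 and cold 2 over normal 1 gave 0.991. The spread between arrays of a label, an SD of 0.92 on the log2 scale, was larger than that of 94.5% of the tested probe sets. The identifier of the probe set carries the same cluster number as those of gpm6aa, gpm6ab and gpm6ba, which encode membrane glycoproteins of neurons and glia, and whether any signal is shared between them was not tested.

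The mean signal of plp1b on the log2 scale was equivalent to 3679 in cold and 3444 in normal brains. In limma's fit across all tested probe sets the log2 difference, cold minus normal, was 0.10 ± 0.55 (SE, n = 2 each), with a 95% interval of -1.22 to 1.42 and an adjusted p of 1.0. The interval runs in fold terms from 0.428 to 2.67, so neither a marked decrease nor a marked increase could be told from no difference. A single array set the direction of this estimate: it was -0.61 without cold 1 and -0.50 without normal 1, but 0.80 without cold 2 and 0.69 without normal 2.

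Claudin k had the same high and low arrays over a smaller range. The cldnk signal (NCBI gene 445070) was 1913 on cold 1 and 1224 on cold 2, against 1216 on normal 1 and 1934 on normal 2. Again the high pair and the low pair each held 1 cold and 1 normal array. The ratio of cold to normal was 1.57 in set 1 and 0.633 in set 2, while cold 1 over normal 2 was 0.989 and cold 2 over normal 1 was 1.01. The mean signals were equivalent to 1530 in cold and 1533 in normal brains, and limma's log2 difference was -0.0027 ± 0.41 (SE, n = 2 each; 95% interval -0.98 to 0.98; adjusted p = 1.0). Its SD between arrays of a label, 0.46 on the log2 scale, exceeded that of 67.2% of the tested probe sets.

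**Figure D1:**
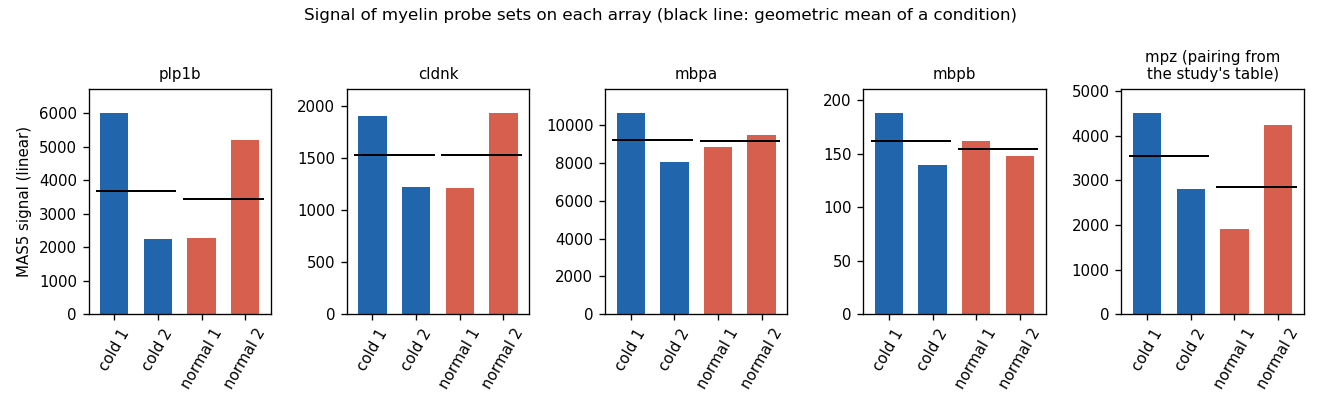
Signal (linear intensity, axis from 0) of plp1b, cldnk, mbpa, mbpb and the probe set that the study pairs with mpz, on each of the 4 arrays, cold 1 and cold 2 on the left and normal 1 and normal 2 on the right. Bars are single arrays and the black line is the mean of a condition taken on the log2 scale. For plp1b and cldnk, cold 1 and normal 2 were high and the other arrays low, while mbpa and mbpb varied by 1.32 and 1.35 times between their highest and lowest array.

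Myelin basic protein transcripts varied less. The mbpa signal (NCBI gene 326281) was 10605 on cold 1 and 8020 on cold 2, against 8852 on normal 1 and 9454 on normal 2. Both normal arrays lay between the 2 cold arrays. This probe set was among the brightest of the array, above at least 99.8% of all probe sets on each, so the precision of its value is not limited by a dim signal. The ratio of cold to normal was 1.2 in set 1 and 0.848 in set 2, and the means were equivalent to 9222 in cold and 9148 in normal brains. Limma's log2 difference was 0.01 ± 0.17 (SE, n = 2 each; 95% interval -0.41 to 0.43; adjusted p = 1.0), which in fold terms runs from 0.755 to 1.35. Of the 4 genes, this was the narrowest interval. Its width draws on the spread of other probe sets of like signal. The SD between arrays of a label was nearly the same for mbpa (0.21 on the log2 scale) and mbpb (0.23). Quantile normalization, which forces all arrays to 1 distribution, gave log2 ratios of 0.41 in set 1 and -0.48 in set 2, in place of 0.26 and -0.24.

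The mbpb signal (NCBI gene 368319) was 188 on cold 1 and 140 on cold 2, against 162 on normal 1 and 148 on normal 2. Here, too, the normal arrays lay between the cold arrays, and the order of the normal arrays was the reverse of that in mbpa. The ratio of cold to normal was 1.16 in set 1 and 0.943 in set 2. Limma's log2 difference was 0.07 ± 0.34 (SE, n = 2 each; 95% interval -0.73 to 0.87; adjusted p = 1.0), with means equivalent to 162 in cold and 155 in normal brains. Since each probe set binds with its own strength, the signals of mbpa and mbpb do not tell which copy is more abundant.

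Of the genes without a probe set by the rule, mpz could be looked at in another way. The study's own gene table pairs a probe set that has no platform symbol with mpz (NCBI gene 114417). It was added after its values had been seen and is not counted among the 4. Its signal was 4502 on cold 1 and 2807 on cold 2, against 1904 on normal 1 and 4251 on normal 2. Cold 1 and normal 2 were again the highest, as for plp1b and cldnk, and the conditions overlapped. The ratio of cold to normal was 2.36 in set 1 and 0.66 in set 2, and limma's log2 difference was 0.32 ± 0.44 (SE, n = 2 each; 95% interval -0.73 to 1.37; adjusted p = 1.0). For plp1a and mag no value is given.

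None of the 4 myelin probe sets passed the test between cold and normal brains. At an adjusted p of 0.05 limma called 0 of the 9301 probe sets higher in cold (0%) and 0 lower (0%), so the lack of calls is not particular to myelin. At an unadjusted p of 0.05, 18 of all probe sets were higher in cold (0.194%) and 28 were lower (0.301%), with no myelin probe set in either count. Together these shares lie far below the rate of 0.05 that randomly scattered arrays with no difference would give. Arrays of the same label were not alike here, so the lack of calls is not evidence that the genes did not differ. Both cold arrays lay above both normal arrays in 9.2% of the tested probe sets and below both in 6.45%, and the myelin probe sets were in neither class. Taken gene by gene, 2 arrays against 2 cannot give a two-sided exact permutation p below 0.333. As these are whole brains, fewer cells of a type and less RNA per cell cannot be told apart.

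**Figure D2:**
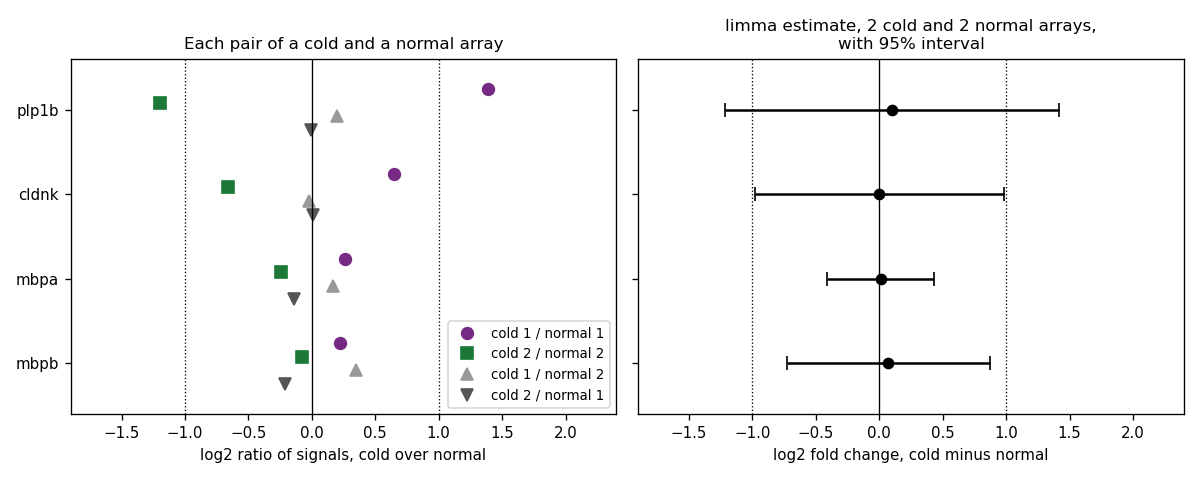
Left, the log2 ratio of a cold array to a normal array for each of the 4 possible pairs and each gene. Right, limma's log2 difference, cold minus normal, with its 95% interval (bars; n = 2 arrays each). The ratios of plp1b run between -1.20 in set 2 and 1.39 in set 1, those across the sets are 0.20 and -0.01, and all 4 intervals include 0. Dotted lines mark 2-fold.

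Within the sets, all 4 myelin probe sets were higher in cold in set 1 and lower in cold in set 2. That pattern, at any size, was found in 36.8% of the tested probe sets. A ratio of at least 2-fold was reached only by plp1b. In set 1 it was 1 of 4 myelin probe sets at least 2-fold higher in cold, against 8.79% of all tested, and 0 of 4 at least 2-fold lower, against 5.13%. In set 2 plp1b was the 1 of 4 at least 2-fold lower in cold, against 4% of all, and 0 of 4 were at least 2-fold higher, against 2.23%. A change of at least 2-fold up in set 1 and down in set 2 was seen in 244 probe sets, 2.62% of those tested, plp1b among them.

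Across the sets, cold 1 over normal 2 and cold 2 over normal 1, the log2 ratios of plp1b, cldnk and mbpa were nearer to 0 than within the sets. For mbpb they were farther from 0, at 0.35 for cold 1 over normal 2 and -0.21 for cold 2 over normal 1, against 0.22 in set 1 and -0.08 in set 2. No myelin probe set differed 2-fold between cold 1 and normal 2, where 2.8% of the tested probe sets did so in either direction, or between cold 2 and normal 1, where 7.26% did. The median log2 ratio of the 4 was 0.46 in set 1, against 0.06 over all tested probe sets, and -0.45 in set 2. Each set has 1 array per condition, so the ratios carry no replicate check.

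**Figure D3:**
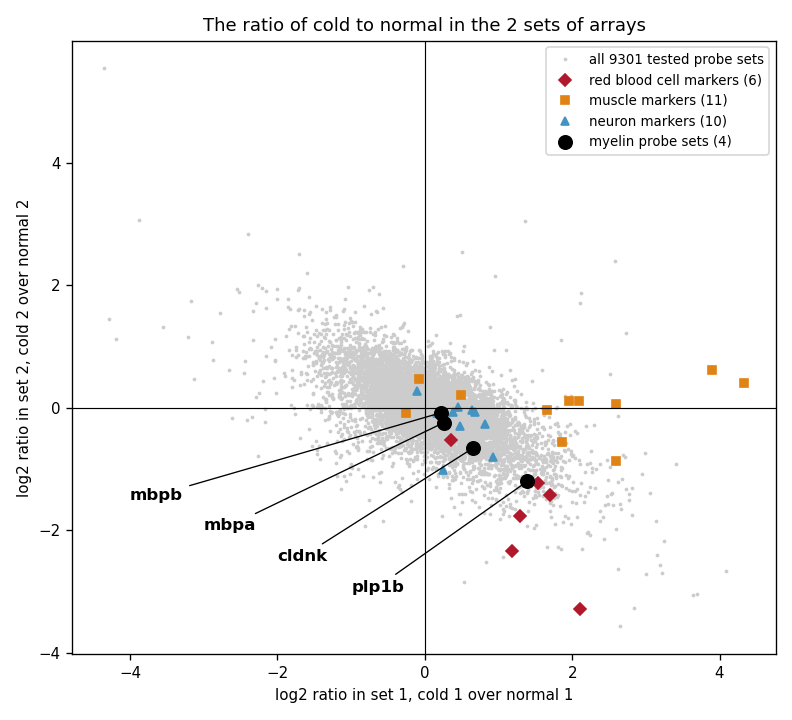
The log2 ratio of cold 1 over normal 1 (horizontal axis) and of cold 2 over normal 2 (vertical axis) for the 9301 tested probe sets (grey), the 4 myelin probe sets (black) and markers of red blood cells, muscle and neurons. The myelin probe sets lie at the lower right, higher in cold in set 1 and lower in cold in set 2, with plp1b at 1.39 and -1.20 beside the red blood cell markers, while most muscle markers lie to the right near 0 on the vertical axis.

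Genes of other membrane proteins of myelin and oligodendrocytes all had smaller set ratios than plp1b. Of 33 listed genes, 14 were on the array and 12 passed the filter on low signal, and 0 of the 12 were called in either direction. In set 1 the median of their log2 ratios was 0.50, in set 2 it was -0.08, and the median of limma's differences was 0.14, against 0.04 over all tested probe sets. The pattern of the 4 genes, higher in cold in set 1 and lower in set 2, was seen in 7 of the 12, against 36.8% of all tested probe sets. It is not particular to myelin, as 8 of 10 tested neuron markers and 6 of 6 tested red blood cell markers had it. Of the lineage regulators 5 of 13 tested had it, and of the sphingolipid genes 4 of 11.

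The brightest of the membrane protein genes was gpm6aa, which encodes a neuronal membrane glycoprotein, so that list is not limited to myelin. The signal of gpm6aa was 4245 and 3938 on the cold arrays, against 3793 and 4202 on the normal arrays. Its level thus stayed within a narrow band on all 4 arrays. The tetraspanin cd9b, whose mammalian counterpart is found in myelin, had 2911 and 2083 on the cold arrays, against 2034 and 2173 on the normal arrays, with cold 1 alone high. Another tetraspanin, tspan2a, had 2041 and 1971 on the cold arrays, against 1195 and 1760 on the normal arrays, and was the only gene of the 4 brightest whose conditions did not overlap (log2 difference 0.47 ± 0.35, SE; adjusted p = 1.0). Over all tested probe sets, both cold arrays were above both normal arrays in 9.2% and below both in 6.45%. The tetraspanin cd81a had 2434 and 2367 on the cold arrays, against 2131 and 2974 on the normal arrays, which enclosed the cold values.

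Regulators of the oligodendrocyte and Schwann cell lineage gave 13 tested genes of 28 listed, with 0 called. The log2 ratios had a median of 0.16 in set 1 and of 0.03 in set 2. The inhibitors of basic helix-loop-helix factors id2a and id4 differed in pattern. The signal of id2a was 2202 and 1562 on the cold arrays, against 1798 and 1599 on the normal arrays, and that of id4 was 766 and 937 on the cold arrays, against 1067 and 652 on the normal arrays. For id4 the set ratios were opposite in sign to those of the myelin genes. The transcription factor pou3f1, which acts in Schwann cell differentiation, had 542 and 449 on the cold arrays, against 421 and 322 on the normal arrays. Both cold arrays were thus above both normal arrays, as in 9.2% of all tested probe sets (log2 difference 0.42 ± 0.41, SE; adjusted p = 1.0). The neuregulin receptor subunit erbb2 had 405 and 325 on the cold arrays, against 340 and 337 on the normal arrays, with overlap.

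Genes of sphingolipid metabolism, which supply and turn over the galactolipids and sphingomyelin of myelin, gave 11 tested genes of 26 listed and 0 calls. Over these 11, the log2 ratios had medians of 0.21 (set 1) and -0.09 (set 2). The brightest was psap, the precursor of the saposins that aid lysosomal lipid breakdown, with 3477 and 4806 on the cold arrays, against 4614 and 3788 on the normal arrays. Its high and low arrays were the reverse of those of plp1b. The long-chain elongase elovl1b had 1297 and 919 on the cold arrays, against 889 and 1151 on the normal arrays, with the same high and low arrays as plp1b. The desaturase degs1 had 921 and 1296 on the cold arrays, against 993 and 1458 on the normal arrays, and sptlc2a, a subunit of the first enzyme of sphingolipid synthesis, had 205 and 362 on the cold arrays, against 236 and 267 on the normal arrays.

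On the axonal side, 4 of 26 listed nodal, paranodal and neurofilament genes were tested, and 0 were called. The sodium channel gene scn8aa, found at nodes, had 441 and 546 on the cold arrays, against 547 and 1207 on the normal arrays. Both cold arrays were lower, cold 2 barely below normal 1, with normal 2 standing apart (log2 difference -0.73 ± 0.50, SE). The intermediate filament gene inab had 267 and 140 on the cold arrays, against 91.2 and 347 on the normal arrays, the same high and low arrays as plp1b. Its partner copy inaa had 180 and 152 on the cold arrays, against 224 and 217 on the normal arrays, so both cold arrays were lower (log2 difference -0.41 ± 0.34, SE; adjusted p = 1.0). The contactin gene cntn1a had 124 and 122 on the cold arrays, against 76.5 and 92.5 on the normal arrays, and both cold arrays were higher (log2 difference 0.55 ± 0.28, SE; adjusted p = 1.0). Over all tested probe sets, both cold arrays were higher in 9.2% and lower in 6.45%.

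**Figure D4:**
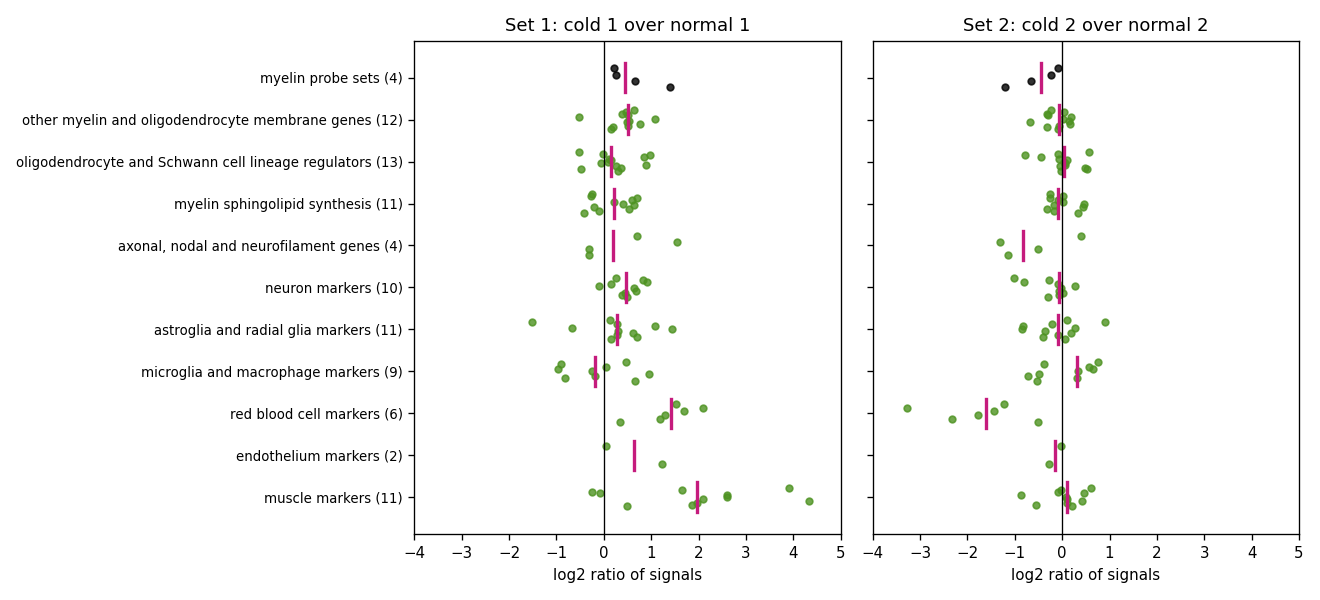
Log2 ratio of cold to normal of each tested gene (points) by gene list, in set 1 on the left and set 2 on the right, with the median of a list as a line. The red blood cell list has medians of 1.41 and -1.60 and the muscle list of 1.96 and 0.11. The other medians lie nearer to 0 than both of these in set 1. In set 2 they lie nearer to 0 than the red blood cell list, with the axonal list of 4 genes at -0.83.

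Red blood cell markers also differed between arrays of the same label. Of 6 tested red blood cell markers, 5 were at least 2-fold higher in cold in set 1 and 5 at least 2-fold lower in set 2, with 0 called by limma. The summed signal of the 7 red blood cell markers on the array, tested or not, was 20736 on cold 1 and 12342 on cold 2. On normal 1 it was 14148 and on normal 2 it was 22114, most of it from the globin gene hbaa1. These are the same high and low arrays as for plp1b, cldnk and the probe set paired with mpz. The heme synthesis gene alas2 had 591 and 195 on the cold arrays, against 182 and 526 on the normal arrays. The anion exchanger gene slc4a1a had 603 and 60.7 on the cold arrays, against 141 and 587 on the normal arrays. The part of blood in the myelin values was not tested.

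Of 11 tested muscle markers, 8 were at least 2-fold higher in cold in set 1 and 0 were so in set 2, with 0 called by limma. At an unadjusted p of 0.05 it was 1, the parvalbumin gene pvalb1, which had 475 and 76 on the cold arrays, against 31.8 and 49.9 on the normal arrays. The summed signal of the list was 6308 on cold 1 and 1802 on cold 2, against 1699 on normal 1 and 1772 on normal 2, so that only cold 1 stood apart. Its relative pvalb2, a calcium buffer of fast muscle, had 1527 and 108 on the cold arrays, against 76.1 and 81.2 on the normal arrays. The part of muscle in the values on cold 1 was not tested.

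The tested neuron, astroglia and radial glia markers were above the median signal on all arrays, except the glial transporter gene slc1a3a. That gene had 96.5 and 110 on the cold arrays, against 88.3 and 102 on the normal arrays. The 10 neuron markers summed to 35393 on cold 1 and 30470 on cold 2, against 25690 on normal 1 and 33532 on normal 2. The log2 ratios of the neuron list had a median of 0.47 in set 1, near the 0.46 of the myelin probe sets, and -0.08 in set 2, where the myelin median was -0.45. The 11 astroglia and radial glia markers summed to 29643 on cold 1 and 27143 on cold 2, against 22812 on normal 1 and 29251 on normal 2. Normal 1 was the lowest array in both sums. The log2 ratios of these 11 had medians of 0.28 in set 1 and -0.09 in set 2. The myelin pattern was seen in 6 of them and the reverse in 2. The brightest, aldocb, had 6333 and 6274 on the cold arrays, against 5682 and 6048 on the normal arrays. The next, fabp7a, had 6304 and 4304 on the cold arrays, against 3892 and 5682 on the normal arrays, the same high and low arrays as plp1b. The reverse was seen in gfap, which had 376 and 666 on the cold arrays, against 1069 and 357 on the normal arrays. The 9 tested markers of microglia and macrophages had median log2 ratios of -0.19 in set 1 and 0.31 in set 2. Of these 9, 3 were lower in cold in set 1 and higher in set 2. Another 2 of the 9 had the pattern of the myelin genes, against 36.8% of all tested probe sets. For the reverse pattern, the share over all tested probe sets was not counted, so its counts here have no background. The 2 tested endothelial markers had medians of 0.63 and -0.15.

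The genes with the array profile most like the mean of the 4 myelin probe sets were found by the root mean square distance of log2 values, each centred on its own mean over the 4 arrays. Over 6950 tested probe sets with 1 gene symbol, the nearest was ywhaqa, a 14-3-3 adaptor protein, at 0.021. It had 2531 and 1503 on the cold arrays, against 1586 and 2253 on the normal arrays. The next were fam8a1b at 0.023, prickle2b of planar cell polarity at 0.032, the lectin gene clec3ba at 0.034 and the sodium channel subunit scn4bb at 0.037. The list of 10 went on with the DNA polymerase subunit rev3l at 0.038, tusc2a at 0.039, the respiratory chain subunit uqcrh at 0.041, the phosphatase cdkn3 at 0.043 and the adaptor grb2a at 0.045. The 4 myelin probe sets were left out of this search. None of the 10 is on the myelin-related lists, but those lists hold few of the 6950 probe sets, so nothing is read from that.

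The myelin probe sets were themselves farther from their mean than these genes, which were picked for the smallest distances among many probe sets. The distance was 0.083 for cldnk, with 64 probe sets closer (0.921%), and 0.171 for mbpa, with 492 closer (7.08%). It was 0.232 for mbpb, with 1013 closer (14.6%), and 0.356 for plp1b, with 2934 closer (42.2%). Each myelin probe set is itself part of that mean, which lowers its distance and the share of probe sets closer. The shares are thus no test of likeness, and over 4 arrays a likeness of profiles is a description only. The arrays of plp1b lay farther apart than those of the mean profile, and those of mbpa and mbpb lay closer together.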

How the data were processed

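Brain RNA of cold and normal adult zebrafish was measured on 4 arrays. The linear intensity of every probe set was deposited by the authors after MAS5 processing, as the submitters' notes name it without a version. Because MAS5 scales whole arrays, a shift shared by most transcripts would be removed. No source used here gives its scaling target or detection calls. Means trimmed by 2% were 254.6 and 250.8 on the cold arrays, and 241.9 and 249.1 on the normal arrays. For arrays, their number limits the precision.

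Of 15617 probe sets, 115 controls were left out. The dimmest of the other 15502 were dropped by their mean log2 signal (under the 40th percentile), which left 9301 to test. Conditions, taken from the labels, were compared on log2 values by an unpaired, two-sided limma fit (version 3.58.1, under R 4.3.3; moderated variances with a trend), called at 0.05 after Benjamini-Hochberg adjustment over all tested probe sets. Within sets the fold was taken with no test and counted at 2-fold. The script was tested on simulated data. Alternatives were quantile normalization, median centring, log2(signal + 16), a 60th percentile filter, no filter, no trend, a replicate block and leaving out each array. The SAM program used in the study was not run.

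Symbols came from the platform annotation (10795 probe sets with 1, 135 with several, 4572 with none), and 10711 of those with 1 were matched by gene ID to a current table (GRCz12tu), which gave names and gene numbers. A listed gene with several probe sets was represented by the brightest. Named were all myelin probe sets, the 10 with the nearest profile, and of the myelin-related lists the 4 genes with the highest signal. From the cell type lists, examples were taken, of which slc4a1a, slc1a3a, gfap and pvalb1 lie outside this rule and were picked with their values known. The genes and lists were chosen with earlier results of these data known. Promoter motifs and protein identities were not analysed here.

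The fit was left unpaired, since the study used an unpaired comparison. Same-numbered arrays did not deviate together: the correlation of their deviations from the condition means was -0.30. With 2 arrays per condition, crossed numbers must give the same size with the other sign, here 0.30. The ratios within sets join arrays by number as a description only.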

Additional observations from a re-analysis of the deposited data

Results flagged for a closer look

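The 4 myelin genes are given here because the cold array was above the normal array in set 1 and below it in set 2. The log2 ratio in set 1 minus that in set 2 was 2.60 for plp1b, 1.31 for cldnk, 0.50 for mbpa and 0.30 for mbpb. With 1 array per condition in a set, the difference between the sets was not tested.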

How the results depend on the processing

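The 4 log2 differences had an adjusted p of 1.0 under every alternative. Over the 32 values that kept all arrays they ran from -0.07 to 0.10. The direction turned in 2 of these, both for mbpa, which was 0.01 in the first fit, -0.04 after quantile normalization and -0.00022 after median centring. Leaving out 1 array turned 7 of 16 values, and the range was -0.61 to 0.80 for plp1b, -0.34 to 0.33 for cldnk, -0.19 to 0.21 for mbpa and -0.15 to 0.28 for mbpb. In these fits the lone array was assumed to vary like the other condition. The 24 set ratios under other scalings all kept their sign. At 1.5-fold, 2 myelin probe sets (plp1b and cldnk) were higher in cold in set 1 and 2 were lower in set 2. The fit with the replicate block called 0 probe sets, as did the others, except that a crossed pairing, chosen after seeing the data, called 1 higher and 0 lower. With 2 arrays per condition the intervals of plp1b, cldnk and mbpb leave room for differences of over 1.5-fold either way.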
